A study of Mus musculus with 8 samples.

Results

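The parvins, the integrin-linked kinase and the proteins they bind at integrin adhesions were followed at the transcript level in cultured mouse kidney tubular epithelial cells with and without Aldh2, the mitochondrial aldehyde dehydrogenase. The genes were Parvb, Parva, Ilk, Lims1, Lims2, Rsu1, Pxn, Fermt1, Fermt2 and Tln1, and rows were taken by symbol: all 10 were among the 14145 genes of the deposited table. Parvb was selected on its difference between the genotypes: it was among the 11 genes past an adjusted p of 0.05 over all genes, and its FPKM in KO and WT are described here with no test. The other 9 were added for what they bind. There were 4 knockout (KO) libraries, from primary cells of Aldh2TEC-KO mice, and 4 wild-type (WT) libraries, from primary cells of Aldh2Ctrl mice, all left without treatment. The cells of both groups were grown in medium with fetal bovine serum. The genotype field of the KO samples runs from ALDH2 to ALDH5, so groups were taken from the titles. The design text names the tubular epithelium as the site of the knockout; no source used here gives the Cre driver or the strain, age and sex of the mice, nor says whether each library is a separate animal. The p-values therefore reflect how far these libraries differ among themselves, which can be technical.

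Integrins are heterodimeric receptors that fasten cells to the matrix. Inside the cell the integrin-linked kinase (Ilk), which works mainly as a scaffold, binds a LIM-domain protein of the PINCH family (Lims1 or Lims2) and a parvin (Parva, Parvb or Parvg), and this trimer joins the integrin tail to actin. Rsu1 binds the PINCH protein, talin (Tln1) and kindlins (Fermt1, Fermt2, Fermt3) bind the integrin tail and activate it, and paxillin (Pxn) docks parvins and kindlins in the adhesion. In kidney epithelium these proteins hold tubule cells to the basement membrane.

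The values are FPKM, reads scaled to gene length and library depth, so levels of different genes can be set side by side. Depth recovered from the FPKM was 17890000 to 18750000 reads or fragments per KO library and 17040000 to 17750000 per WT library. Aldh2 itself was at 0.879 to 1.64 FPKM in the KO libraries and at 23.7 to 31.1 FPKM in the WT libraries. The epithelial markers Epcam and Cdh1 were present in every library. Of the 7 proximal tubule markers, 3 were in the table, at no more than 22.7 FPKM in sum in any library. By their sex-linked transcripts KO 1 and KO 2 were female, and KO 3, KO 4 and the WT libraries were male. KO 3 and KO 4 also stood apart in base composition. The median of the fifth of genes with the lowest GC content lay at -0.98 and -0.64 on the log2 scale against the WT mean in KO 3 and KO 4, at 0.20 and 0.01 in KO 1 and KO 2, and between -0.10 and 0.12 in the WT libraries. The fifth with the highest GC content lay at 0.48 and 0.49 in KO 3 and KO 4, at -0.34 and 0.09 in KO 1 and KO 2, and between -0.09 and 0.08 in the WT libraries. Results are therefore also given for KO 1 and KO 2 alone and for KO 3 and KO 4 alone.

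Parvb (ENSMUSG00000022438, GRCm38 chromosome 15, 84232043 to 84315688, plus strand, protein coding), the beta parvin, was higher in the KO cells. It was at 15.4, 11.8, 10.0 and 11.7 FPKM in KO 1 to 4 and at 3.55, 2.83, 3.15 and 1.24 FPKM in WT 1 to 4. Every KO library lay above every WT library, with KO 1 the highest of the KO libraries and WT 4 the lowest of all. The means were 12.2 ± 2.26 FPKM in KO and 2.69 ± 1.01 FPKM in WT (SD, n = 4 each), a ratio of 4.54. On the scale of log2(FPKM + 1), which understates the change of genes with low values, the difference was 1.87 (SE 0.25). These values rest on 828 to 1251 recovered reads per KO library and 95 to 271 per WT library. The difference was 2.02 for KO 1 and KO 2 against WT and 1.73 for KO 3 and KO 4 against WT. In the authors' deposited table the log2 fold change of Parvb is 2.27, with a mark of up.

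**Figure D1:**
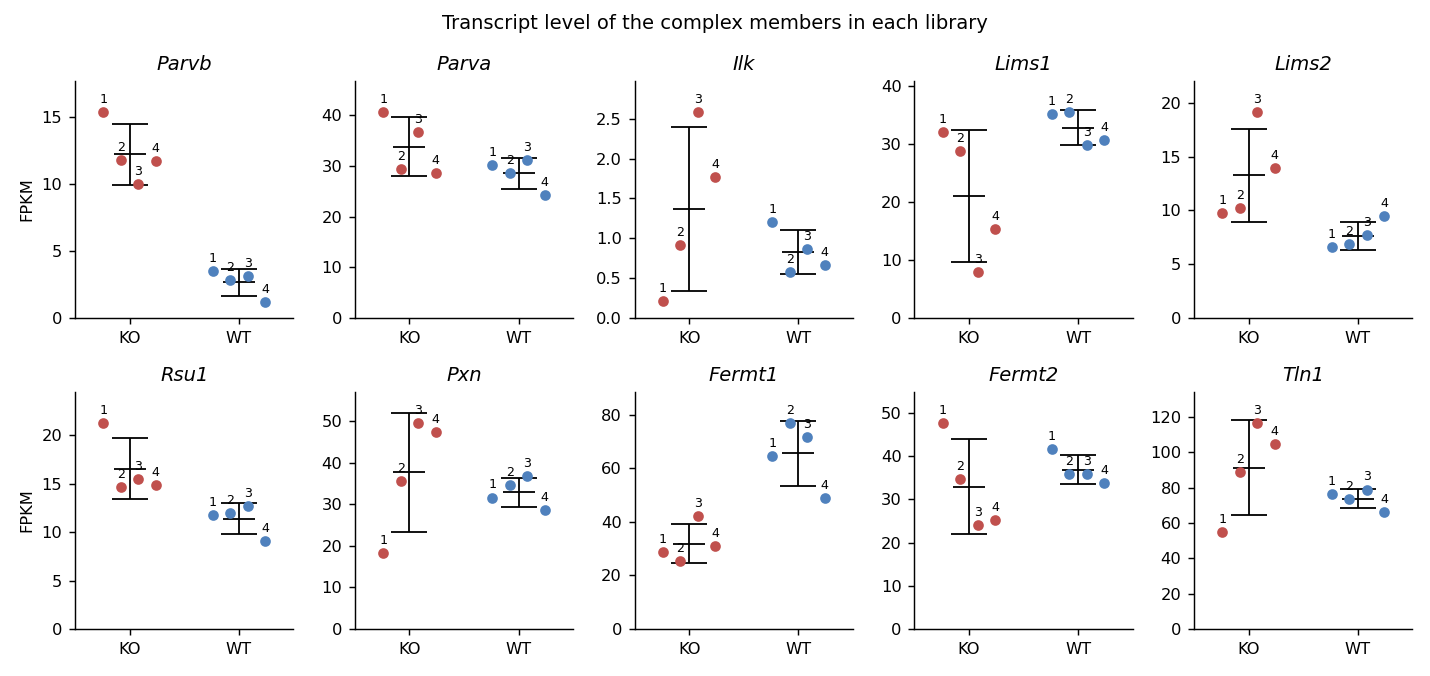
FPKM of the 10 genes in each library, KO left and WT right in each panel, with points numbered by replicate, bars for the mean and whiskers for the SD (n = 4 each). Parvb, Lims2 and Rsu1 are higher in every KO library than in any WT library, Fermt1 is lower in every KO library, and in Lims1, Fermt2, Pxn, Tln1 and Ilk the 4 KO points spread widely.

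Windows of 300 bases around the annotated start (250 bases before it to 50 after it) are given for Parvb, Rsu1 and Fermt1. These are 3 of the 4 members whose KO and WT libraries did not overlap, as for 11.6% of all genes, and Parvb was chosen on this contrast. The window of Lims2, the other such member, is not shown here. The sequences are those of RefSeq for GRCm38.p6. Capitals mark matches, on either strand, to the GC box GGGCGG and the CCAAT box CCAAT. The TATA box TATAAA, the TEAD site GGAATG and the AP-1 site TGANTCA were also searched on both strands and had no match in these 3 windows. No motif overlaps another in the windows shown.
Parvb, chr15:84231793-84232092, plus strand: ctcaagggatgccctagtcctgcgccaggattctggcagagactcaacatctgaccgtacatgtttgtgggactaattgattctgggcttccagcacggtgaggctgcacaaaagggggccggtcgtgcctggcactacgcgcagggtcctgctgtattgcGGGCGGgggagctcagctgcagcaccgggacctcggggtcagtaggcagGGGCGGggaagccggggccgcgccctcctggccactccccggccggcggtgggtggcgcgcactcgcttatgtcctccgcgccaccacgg
Rsu1, chr2:13271366-13271665, minus strand: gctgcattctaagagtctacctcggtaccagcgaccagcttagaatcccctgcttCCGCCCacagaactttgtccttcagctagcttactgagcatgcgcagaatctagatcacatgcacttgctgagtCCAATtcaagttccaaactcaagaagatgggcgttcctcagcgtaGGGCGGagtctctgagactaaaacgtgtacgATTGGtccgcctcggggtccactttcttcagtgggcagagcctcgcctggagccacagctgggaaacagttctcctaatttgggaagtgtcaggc
Fermt1, chr2:132945987-132946286, minus strand: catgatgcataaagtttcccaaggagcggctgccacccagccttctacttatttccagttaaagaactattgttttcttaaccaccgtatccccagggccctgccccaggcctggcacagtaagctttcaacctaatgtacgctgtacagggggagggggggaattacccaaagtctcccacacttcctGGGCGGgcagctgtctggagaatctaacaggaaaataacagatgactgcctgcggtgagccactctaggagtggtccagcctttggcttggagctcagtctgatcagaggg
The Parvb window is rich in G and C (67.0%, more than 85.6% of the 32851 RefSeq windows), and holds 2 matches to the GC box. The Rsu1 and Fermt1 windows are both at 53.0%. Rsu1 has 2 matches each to the GC box and the CCAAT box, and Fermt1 has 1 match to the GC box. Of all windows, 35.7% hold a GC box, 37.4% a CCAAT box, 13.6% a TATA box, 14.7% a TEAD site and 7.81% an AP-1 site.

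The closest relative of Parvb, Parva (chromosome 7, 112427505 to 112591692), did not pass the test. Parva, the alpha parvin and the main parvin of these cells by level, was at 40.6, 29.3, 36.7 and 28.5 FPKM in KO 1 to 4 and at 30.1, 28.5, 31.2 and 24.2 FPKM in WT 1 to 4. The groups overlapped, at means of 33.8 ± 5.84 FPKM in KO and 28.5 ± 3.08 FPKM in WT (SD, n = 4 each). The log2 difference of Parva was 0.23 (95% interval -0.16 to 0.62, limma adjusted p over all genes = 0.468), and 0.66 with the length and GC trends removed (limma adjusted p = 0.175). Because Parva is so much more abundant, Parvb made up a minor share of parvin transcript in every library. Parvb held 27.2%, 26.4%, 21.2% and 27.7% of the summed FPKM of the 3 parvins in KO 1 to 4, and 10.1%, 8.95%, 9.10% and 4.85% in WT 1 to 4. The summed parvin level was 47.7 ± 6.26 FPKM in KO and 31.7 ± 4.39 FPKM in WT (SD, n = 4 each), and the groups did not overlap. These sums and shares hold Parvb and carry no test.

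**Figure D2:**
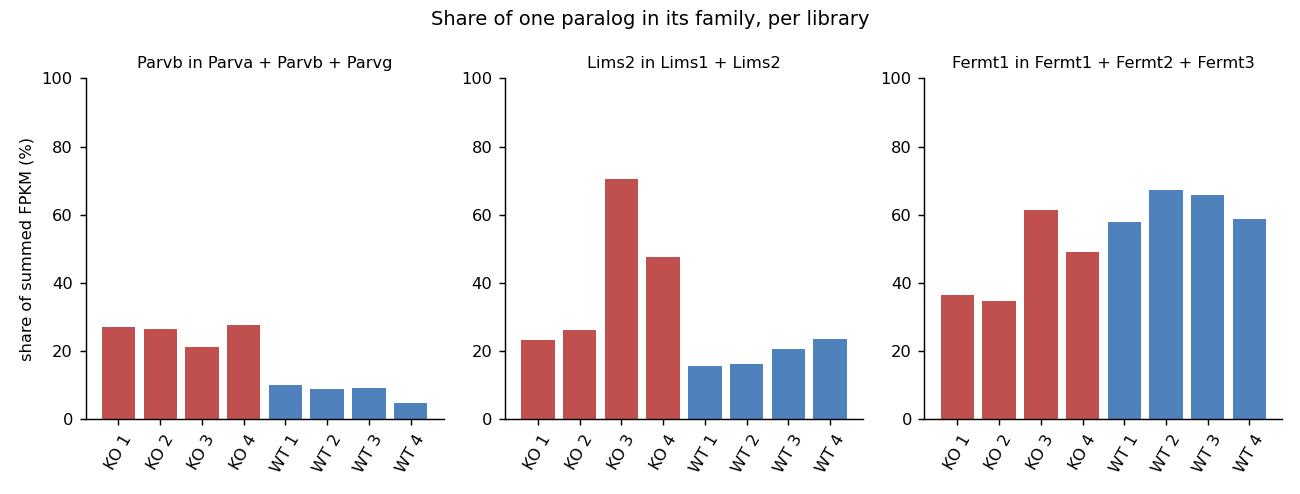
Share of summed FPKM in percent held by Parvb among the parvins, Lims2 among the PINCH genes and Fermt1 among the kindlins, with 1 bar per library (KO left, WT right). The Parvb share is 21.2% to 27.7% in KO and 4.85% to 10.1% in WT, while the Lims2 share reaches 70.6% in KO 3 and 47.5% in KO 4 and is 26.2% or less in the other libraries.

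Ilk, the scaffold of the complex, was listed at very low levels. It was at 0.218, 0.917, 2.58 and 1.77 FPKM in KO 1 to 4 and at 1.203, 0.577, 0.862 and 0.673 FPKM in WT 1 to 4, which is 11 to 133 recovered reads per KO library and 27 to 57 per WT library. The KO libraries lay on both sides of the WT libraries (log2 difference 0.27, 95% interval -0.42 to 0.97, limma adjusted p = 0.625). The difference of Ilk was -0.25 for KO 1 and KO 2 against WT and 0.80 for KO 3 and KO 4 against WT (limma adjusted p = 0.0171, where 44.4% of all genes passed), so its direction turned with the KO libraries used. The Ilk gene (chromosome 7, 105736592 to 105742925, plus strand) lies under 2 genes of the minus strand. In GENCODE M21, 2461 of its 2744 exon bases (89.7%) are also exon of another gene, 2106 of Taf10, a subunit of a general transcription factor, and 355 of Rrp8. The sources used here do not state whether the authors' counting used strand, and without strand the reads of Ilk and of those genes cannot be told apart. Of the protein-coding genes in the table, 18 share over 80% of their exon bases with other genes, at a median of 1.84 FPKM in KO and 1.80 FPKM in WT. The 7832 protein-coding genes that share none have a median of 7.23 FPKM in KO and 7.73 FPKM in WT. The level of Ilk is therefore uncertain, and the part of the overlap in it was not tested.

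The PINCH genes ran in opposite directions, and mainly in KO 3 and KO 4. Lims1, the broadly expressed PINCH protein, was at 32.1, 28.9, 7.99 and 15.4 FPKM in KO 1 to 4 and at 35.3, 35.6, 29.8 and 30.8 FPKM in WT 1 to 4. KO 3 and KO 4 lay far below all other libraries, while KO 1 lay within the WT range and KO 2 just under it. The log2 difference of Lims1 was -0.79 (95% interval -1.62 to 0.04, limma adjusted p = 0.279), and it was -0.10 for KO 1 and KO 2 and -1.48 for KO 3 and KO 4 against WT. Lims2, the second PINCH gene, was at 9.79, 10.3, 19.1 and 13.9 FPKM in KO 1 to 4 and at 6.58, 6.84, 7.75 and 9.48 FPKM in WT 1 to 4. Every KO library lay above every WT library, though KO 1 only just, and the difference did not pass over all genes (log2 difference 0.69, 95% interval 0.17 to 1.198, limma adjusted p = 0.188). The Lims2 share of summed PINCH transcript was 23.4%, 26.2%, 70.6% and 47.5% in KO 1 to 4 and 15.7%, 16.1%, 20.6% and 23.5% in WT 1 to 4. This difference of 22.9 percentage points had an exact two-sided permutation p of 0.0571, against a smallest possible p of 0.0286, and an adjusted p of 0.129 over the 3 shares tested, which were chosen after their values were seen. Without KO 3 and KO 4 it was 5.78 points, and without KO 3 alone 13.3 points. The genes also differ in base composition, at a GC content of 40.7% for the longest transcript of Lims1 and 57.8% for that of Lims2. With the trends on length and GC content removed per library, the log2 differences were -0.51 for Lims1 (limma adjusted p = 0.200) and 0.47 for Lims2 (limma adjusted p = 0.175).

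Rsu1, the partner of the PINCH protein and a suppressor of Ras-driven transformation, was modestly higher in the KO cells. It was at 21.3, 14.7, 15.5 and 14.9 FPKM in KO 1 to 4 and at 11.8, 12.0, 12.7 and 9.06 FPKM in WT 1 to 4. No KO library lay as low as any WT library, and KO 1 stood above the other 3 KO libraries. The log2 difference of Rsu1 was 0.50 (95% interval 0.09 to 0.90), and it did not pass over all genes (limma adjusted p = 0.206). Its difference from WT was 0.60 for KO 1 and KO 2 and 0.39 for KO 3 and KO 4, and 0.96 with the length and GC trends removed (limma adjusted p = 0.109).

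Fermt1, the kindlin of epithelial cells, was lower in every KO library. It was at 28.7, 25.4, 42.2 and 31.1 FPKM in KO 1 to 4 and at 64.7, 77.0, 71.8 and 48.8 FPKM in WT 1 to 4, at means of 31.9 ± 7.30 FPKM in KO and 65.6 ± 12.3 FPKM in WT (SD, n = 4 each). The groups did not overlap, with KO 3 the nearest to WT 4. The log2 difference of -1.02 (95% interval -1.50 to -0.55) did not pass over all genes (limma adjusted p = 0.0996). It was -1.23 for KO 1 and KO 2 and -0.82 for KO 3 and KO 4 against WT. Of the 9 epithelial markers 4 were lower and 5 higher in KO, and none passed with limma or limma-voom (2 had an unadjusted p below 0.05, against 19.2% of all genes). Epcam, among the lower ones, was at 45.9, 27.4, 107 and 65.1 FPKM in KO 1 to 4 and at 126, 159, 157 and 85.7 FPKM in WT 1 to 4, with overlap. Cdh1, also lower, was at 30.1 to 156 FPKM in KO and 108 to 210 FPKM in WT, with overlap. The summed level of the 9 markers was 870 to 6662 FPKM in KO and 1462 to 3251 FPKM in WT. Krt8 was its largest part in every library, at 267 to 3553 FPKM in KO and 469 to 1460 FPKM in WT. The part of these markers in the Fermt1 difference was not tested, and in these bulk libraries fewer cells of a type and less RNA per cell cannot be told apart.

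Fermt2, the broadly expressed kindlin, did not follow Fermt1. It was at 47.8, 34.8, 24.1 and 25.2 FPKM in KO 1 to 4 and at 41.6, 36.0, 35.9 and 33.8 FPKM in WT 1 to 4, so KO 1 was the highest and KO 3 and KO 4 were the lowest of all libraries. The log2 difference of Fermt2 was -0.21 (95% interval -0.71 to 0.30, limma adjusted p = 0.612). It was 0.15 for KO 1 and KO 2 and -0.56 for KO 3 and KO 4 against WT. The summed level of the 3 kindlins was 71.1 ± 6.68 FPKM in KO and 104.6 ± 14.5 FPKM in WT (SD, n = 4 each), with no overlap. Fermt1 held 36.3%, 34.7%, 61.5% and 49.0% of kindlin transcript in KO 1 to 4 and 58.0%, 67.2%, 65.8% and 58.8% in WT 1 to 4. That difference of -17.1 percentage points had an exact two-sided permutation p of 0.0857 and an adjusted p of 0.129 over the 3 shares, and KO 3 lay within the WT range. Without KO 3 and KO 4 it was -26.9 points.

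Talin and paxillin split the KO libraries as well. Tln1, the rod-like protein that couples integrins to actin, was at 54.6, 88.8, 116.7 and 104.5 FPKM in KO 1 to 4 and at 76.4, 73.5, 78.9 and 66.1 FPKM in WT 1 to 4. KO 1 was the lowest and KO 3 the highest of all libraries, and the log2 difference was 0.25 (95% interval -0.29 to 0.79, limma adjusted p = 0.561). Pxn, the paxillin gene, was at 18.3, 35.6, 49.6 and 47.3 FPKM in KO 1 to 4 and at 31.6, 34.6, 36.7 and 28.6 FPKM in WT 1 to 4, with KO 1 again lowest and KO 3 highest. Its log2 difference was 0.10 (95% interval -0.55 to 0.76, limma adjusted p = 0.851). For KO 1 and KO 2 against WT the differences were -0.08 for Tln1 and -0.34 for Pxn, and for KO 3 and KO 4 they were 0.58 and 0.55. The direction of both thus turned with the KO libraries used.

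**Figure D3:**
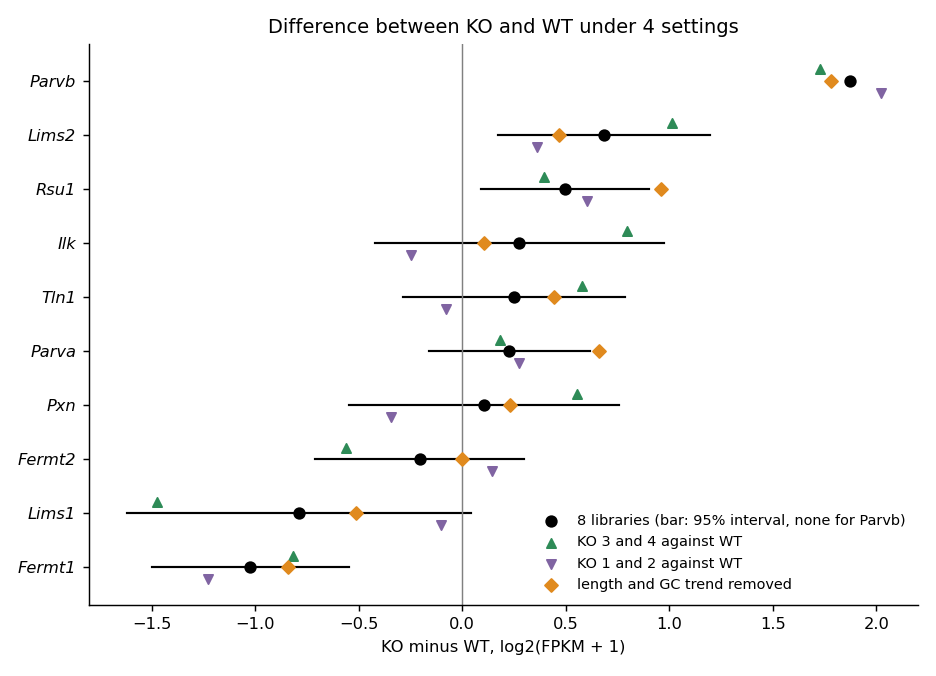
KO minus WT on the scale of log2(FPKM + 1) for each gene, from all 8 libraries with a 95% interval (black, no interval for Parvb), for KO 3 and 4 and for KO 1 and 2 each against the WT libraries (triangles), and with the trends on length and GC content removed (diamonds). Parvb lies between 1.73 and 2.02 and Fermt1 between -1.23 and -0.82, while Ilk, Tln1, Pxn and Fermt2 lie on either side of 0.

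Within the KO group the genes with high GC content were mostly higher in KO 3 and KO 4, and those with low GC content lower. Between the mean of KO 3 and KO 4 and the mean of KO 1 and KO 2, the log2 difference was -1.38 for Lims1 (GC content 40.7%), -0.71 for Fermt2 (45.9%) and -0.21 for Rsu1 (44.6%). It was 0.90 for Pxn (57.7%), 0.66 for Tln1 (56.98%) and 0.65 for Lims2 (57.8%). Parvb, at a GC content of 55.5%, went the other way with -0.29. With the trends on length and GC content removed, the difference was -0.57 for Lims1, -0.26 for Fermt2, 0.65 for Pxn, 0.52 for Tln1 and 0.04 for Lims2. For the other members it was -0.66 for Parvb, 0.58 for Rsu1, 0.70 for Fermt1 (0.41 before), 0.53 for Parva (-0.09 before) and 0.78 for Ilk (1.044 before). In size the difference was thus smaller for 6 and larger for 4 of the 10. The share of FPKM on mitochondrial transcripts was 1.32% and 1.63% in KO 3 and KO 4, 5.40% and 5.63% in KO 1 and KO 2, and 4.399% to 7.77% in the WT libraries. The part of library quality in these differences was not tested.

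**Figure D4:**
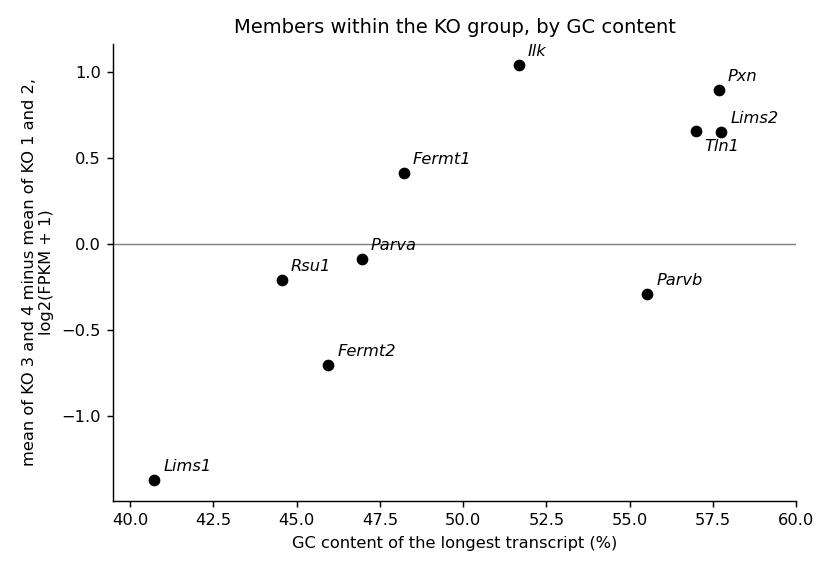
Difference between the mean of KO 3 and 4 and the mean of KO 1 and 2 on the scale of log2(FPKM + 1), against the GC content of the longest transcript in percent, with 1 point per gene. Lims1, with a GC content of 40.7%, is lowest at -1.38 and Pxn, with 57.7%, is at 0.90, while Parvb, with 55.5%, is at -0.29.

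Counted over the set, 7 of the 10 genes had a higher mean and 3 a lower mean in KO on the log2 scale, and the median difference was 0.24, against -0.06 for all 14145 genes. Without Parvb, which was chosen for being higher, 6 of 9 had a higher and 3 a lower mean, with a median of 0.23. Parvb passed the threshold of an adjusted p below 0.05, as did 0.0778% of all genes (0.0212% higher and 0.0566% lower in KO), and it was chosen for that. Its call was lost with limma-voom, with a term for replicate number, with a pseudocount of 0.1 and with the length and GC trends removed. It was also lost without KO 3 and KO 4, and when any 1 library other than KO 2 or WT 4 was left out. None of the other 9 passed with limma or limma-voom (0 genes with either), and of these 9, 3 (Lims2, Rsu1 and Fermt1) had an unadjusted p below 0.05, against 19.2% of all genes. The KO libraries lay above all WT libraries for Parvb, Lims2 and Rsu1, as for 4.76% of all genes, and below them for Fermt1, as for 6.86%. With KO 3 and KO 4 as the KO libraries, 8 of the 10 passed (all but Parva and Rsu1), where 44.4% of all genes did. With a term for sex over the 8 libraries, 6 passed (Parvb, Ilk, Lims1, Lims2, Fermt1 and Fermt2), where 34.2% of all genes did. Parvb, counted among the 8 and among the 6, was chosen on the KO difference in these libraries. Both female libraries are KO and all WT libraries are male. The genotype difference with the sex term therefore rests on KO 3 and KO 4 against WT. Its values were those of the male libraries alone (1.73 for Parvb and -1.48 for Lims1 in each). In these data sex and the GC trend cannot be told apart within the KO group. The male KO libraries are those with the trend towards high GC content.

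By mean level, Tln1 was first of the 10 in both groups, at 91.1 FPKM in KO and 73.7 FPKM in WT, though its WT range overlapped that of Fermt1. In KO, Pxn, Parva, Fermt2 and Fermt1 followed at 37.7, 33.8, 32.9 and 31.9 FPKM, and then Lims1, Rsu1, Lims2 and Parvb at 21.1, 16.6, 13.3 and 12.2 FPKM. The ranges of each neighbouring pair from Pxn down to Parvb overlapped. In WT the order was Fermt1 at 65.6, Fermt2 at 36.8, Lims1 and Pxn at 32.9 each, Parva at 28.5, Rsu1 at 11.4, Lims2 at 7.66 and Parvb at 2.69 FPKM. There Parvb lay below Lims2 with no overlap of ranges, and Fermt1 lay above Fermt2 with none. Ilk was last in both groups.

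Further relatives of these genes were also measured. Parvg, the parvin of blood cells, was at 0.685, 3.65, 0.552 and 2.07 FPKM in KO 1 to 4 and at 1.42, 0.266, 0.292 and 0.131 FPKM in WT 1 to 4. Fermt3, the kindlin of blood cells, was at 2.62, 13.1, 2.41 and 7.15 FPKM in KO 1 to 4 and at 5.30, 1.61, 1.41 and 0.379 FPKM in WT 1 to 4. Both were highest in KO 2 and KO 4, and WT 1 lay above the other WT libraries. The summed level of the 12 macrophage and leukocyte markers was also highest in KO 2, KO 4 and WT 1, at 585, 1744, 231 and 1133 FPKM in KO 1 to 4 and 1053, 93.7, 109 and 119 FPKM in WT 1 to 4. Of these 12 markers 11 were higher and 1 lower in KO, with a median log2 difference of 1.88, and 5 had an unadjusted p below 0.05, as did 19.2% of all genes. None of the 12 passed with limma or limma-voom (0 genes), and the KO and WT libraries overlapped for each. Lpxn, the leukocyte relative of paxillin, was at 0.446 to 6.01 FPKM in KO and 0.207 to 2.28 FPKM in WT. Tgfb1i1, a paxillin relative of muscle and fibroblasts, was at 8.31 to 15.4 FPKM in KO and 2.56 to 13.1 FPKM in WT, and Tln2 at 5.36 to 7.57 FPKM in KO and 4.70 to 7.78 FPKM in WT. None of the 5 relatives passed (limma adjusted p of 0.275 to 0.878, 0 with an unadjusted p below 0.05), and the groups overlapped for each. Of other cell types, the summed fibroblast and pericyte markers (9 of 12 in the table, mostly Acta2) ranged from 601 to 1784 FPKM in KO and from 140 to 1196 FPKM in WT. Of those 9, though, 7 were lower and 2 higher in KO (median log2 difference -1.08), and Pdgfrb and Col3a1 lay below WT in every KO library, as did 6.86% of all genes. The 2 higher ones overlapped between the groups. Acta2 was at 561 to 1746 FPKM in KO and 98.4 to 726 FPKM in WT, and Tagln at 2.59 to 12.5 FPKM in KO and 0.377 to 5.13 FPKM in WT. Pdgfrb was at 0.654, 1.35, 2.62 and 1.75 FPKM in KO 1 to 4 and at 17.3, 3.62, 5.41 and 4.38 FPKM in WT 1 to 4. Col3a1 was at 0.775, 1.06, 2.11 and 1.66 FPKM in KO 1 to 4 and at 23.6, 3.18, 4.23 and 2.28 FPKM in WT 1 to 4. WT 1 was far the highest for both. The summed endothelial markers (4 of 9) ranged from 1.97 to 3.83 FPKM in KO and from 5.62 to 8.36 FPKM in WT. All 4 were lower in KO, and Eng and Esam lay below WT in every KO library, as did 6.86% of all genes. The endothelial markers Pecam1, Cdh5, Kdr, Tie1 and Tek were not in the table. The platelet markers Pf4 and Ppbp (2 of 6) summed to 40.9 to 285 FPKM in KO and to 13.3 to 108.9 FPKM in WT. Most of that sum was Ppbp in every library, at 24.2 to 280 FPKM in KO and 13.1 to 104 FPKM in WT. Pf4 was at 4.95 to 16.7 FPKM in KO and 0.160 to 6.91 FPKM in WT. The platelet markers Itga2b, Gp9, Gp1bb and Treml1 were not in the table. The part of these cell types in the Parvb difference was not tested.

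The genes beside Parvb on chromosome 15 did not pass. Parvg starts 8338 bases after the end of Parvb on the same strand (log2 difference 0.76, limma adjusted p = 0.298). Samm50, a mitochondrial outer-membrane assembly protein that ends 14776 bases before Parvb, was at 13.1, 11.1, 23.3 and 20.5 FPKM in KO 1 to 4 and at 10.8, 12.1, 11.6 and 11.3 FPKM in WT 1 to 4 (log2 difference 0.47, limma adjusted p = 0.291). KO 3 and KO 4 were its high libraries, unlike for Parvb. The next measured genes, Sult4a1, Ttll12, Rtl6 and Prr5, had differences of -0.01, 0.41, 0.23 and -0.13 with overlapping groups (limma adjusted p of 0.360 to 0.994).

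The profiles most like that of Parvb were found by the root mean square difference, over the 8 libraries, of log2(FPKM + 1) less its WT mean, among 12069 other genes with a mean of at least 1 FPKM. Nearest were Hist2h3c2 at 0.27, Rprm at 0.30, Hist1h2bj and Cyp26b1 at 0.34, Hist1h4i at 0.35 and Rpl36-ps2 at 0.37 on the log2 scale. Hist2h3c2, Hist1h2bj and Hist1h4i are histone genes with near-identical copies, and Rpl36-ps2 is a pseudogene, so their reads can be shared with other copies. Rprm, a cell cycle inhibitor, was at 20.7, 10.6, 12.2 and 10.3 FPKM in KO 1 to 4 and at 5.55, 3.82, 3.66 and 0.711 FPKM in WT 1 to 4. Cyp26b1, which breaks down retinoic acid, was at 7.64, 2.78, 2.46 and 5.01 FPKM in KO 1 to 4 and at 0.985, 0.252, 0.147 and 0.0431 FPKM in WT 1 to 4. Like Parvb, both had their highest value in KO 1 and their lowest in WT 4. Genes picked by likeness to Parvb over these libraries tend to share this, so it is no separate result. The measure follows the size of the KO difference, which chose Parvb, and carries no test.

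Around the complex, no list of adhesion genes had a member past the threshold with limma (0 genes), while 4 of 21 plaque adaptors and 6 of 19 integrin subunits had an unadjusted p below 0.05, as did 19.2% of all genes. With limma-voom 0 genes of these lists passed. Of 21 adhesion plaque adaptors, 7 were higher and 14 lower in KO (median log2 difference -0.24, against -0.06 for all genes), and 3 of 21 lay below WT in every KO library, as did 6.86% of all genes. Those were Lpp, a zyxin relative, Vcl, vinculin, and Nck2, an adaptor that binds the PINCH protein. Vcl was at 26.4, 55.6, 48.8 and 45.7 FPKM in KO 1 to 4 and at 78.3, 69.9, 68.4 and 58.0 FPKM in WT 1 to 4 (log2 difference -0.67, limma adjusted p = 0.200). Nck2 was at 9.23 to 10.5 FPKM in KO and 11.3 to 16.4 FPKM in WT (log2 difference -0.50, limma adjusted p = 0.179). Lpp was at 8.75 to 38.8 FPKM in KO, lowest in KO 3, and 40.4 to 52.2 FPKM in WT (log2 difference -1.21, limma adjusted p = 0.179). Enah, an actin elongation factor, was at 8.22 to 21.2 FPKM in KO and 17.8 to 24.1 FPKM in WT, and Csrp1, a LIM protein, at 167 to 727 FPKM in KO and 135 to 321 FPKM in WT, neither past the threshold.

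Of 19 measured integrin subunits, 12 were lower and 7 higher in KO (median log2 difference -0.28), and 3 (Itgb3, Itgb6 and Itgav) lay below WT in every KO library, as did 6.86% of all genes. Itgb3, which pairs with the alpha V subunit, was at 3.33, 2.96, 5.67 and 4.49 FPKM in KO 1 to 4 and at 19.0, 9.40, 10.4 and 11.8 FPKM in WT 1 to 4 (log2 difference -1.40, limma adjusted p = 0.0968). Itgb6, an epithelial partner of the same subunit, was at 7.39, 12.0, 9.72 and 9.11 FPKM in KO 1 to 4 and at 16.2, 29.1, 27.8 and 48.4 FPKM in WT 1 to 4 (log2 difference -1.49, limma adjusted p = 0.0996). Itgav, the alpha V subunit, averaged 31.0 ± 12.8 FPKM in KO and 64.6 ± 4.81 FPKM in WT (SD, n = 4 each; log2 difference -1.12, limma adjusted p = 0.133). Itga2, a collagen receptor subunit, was at 2.75 to 3.62 FPKM in KO and 3.40 to 7.68 FPKM in WT, and Itgb8 at 0.294 to 1.89 FPKM in KO and 1.33 to 4.80 FPKM in WT. Itgb1, the shared beta subunit that Ilk was first found to bind, was at 587 to 1534 FPKM in KO and 506 to 987 FPKM in WT, with a log2 difference of 0.05 (limma adjusted p = 0.951). Itgb1 is given for its tie to Ilk, outside the rule for named genes.

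**Figure D5:**
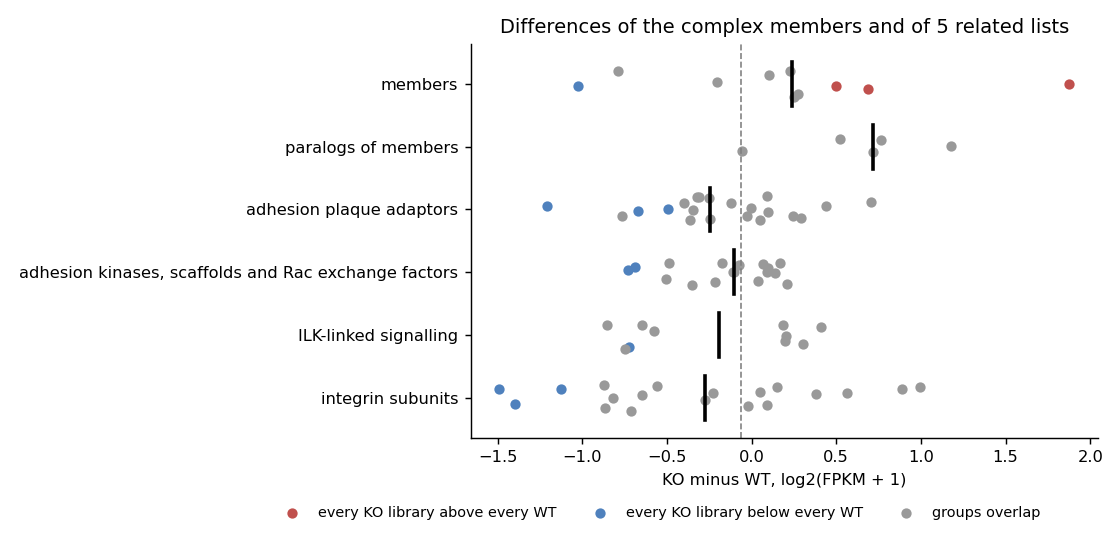
KO minus WT on the scale of log2(FPKM + 1) for the 10 genes and 5 related lists, with 1 point per gene, coloured by whether all KO libraries lie above (red) or below (blue) all WT libraries, a black bar at the median of each list and a dashed line at the median of all genes (-0.06). Parvb is the rightmost point at 1.87, and Itgb6 the leftmost at -1.49.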

How the data were processed

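RNA-seq of 4 KO and 4 WT libraries was analysed from 1 deposited table, whose name speaks of raw counts. Its values carry decimals and were treated as the authors' FPKM. For each gene the authors deposited their own log2 fold change with its p-value and adjusted p-value. Among the tools in the submitters' processing notes are STAR 2.4.1d, FastQC and DESeq2, with the build GRCm38. The counter, strand setting, annotation and row filter were not given in the sources used here. No column was without a sample (0 columns).

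Times the exon-union lengths of GENCODE M21 (14129 genes), 95.0% to 95.5% of values worth 1 to 200 reads lay within 0.05 read of a whole number, which gave depth. Intervals reflect spread between libraries.

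The test was limma 3.58.1 (R 4.3.3) on log2(FPKM + 1), with a variance trend, genotype as the only term, all genes, and Benjamini-Hochberg adjustment at 0.05. It was tested on simulated data, with reads drawn gene by gene without a sex difference or trends on length and GC content. That test does not cover these features of the libraries. Shares were compared by exact permutation (scipy 1.17.1). Trends were removed per library by lowess (span 0.3). Alternatives were other pseudocounts, a filter, scalings, a replicate block, sex, left-out libraries and limma-voom on recovered reads. The genes and lists were chosen with earlier results of these data known. Named genes were the 10, their relatives, up to 5 per list by lowest p, the 3 measured neighbours on each side of Parvb and the 6 most alike.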

Additional observations from a re-analysis of the deposited data

Results flagged for a closer look

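Rsu1 in KO 1, at 21.3 FPKM, lay far above the other KO libraries (14.7 to 15.5 FPKM), with a gap to the nearest of 0.877 of the whole KO range. It was the only value singled out among 28 groups of 4 libraries examined (the 10 genes and 4 family shares in each genotype), and chance singles out about 1 in 20 groups. Without KO 1 the log2 difference of Rsu1 was 0.38.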

How the results depend on the processing

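The Parvb log2 difference kept its direction in every setting run. Parvb was chosen on this contrast and its groups did not overlap, so leaving out libraries could not turn that direction. The difference was 1.65 to 1.99 with 1 library left out, 1.87 with the replicate block, 2.02 without KO 3 and 4, and 2.26 with limma-voom on recovered reads, which adds no pseudocount of 1 FPKM. The Parvb share difference was 16.2 to 18.8 percentage points with 1 library left out. The count of genes past the threshold was 11, and 3 with a pseudocount of 0.1, 7 with limma-voom, 2 with the length and GC trends removed (chosen after seeing the data), 1 with the replicate block, 4838 with a sex term, 6275 with male libraries alone and 1 to 1139 with 1 library left out (1 without KO 1, KO 4, WT 1, WT 2 or WT 3, 3 without KO 3, 8 without WT 4 and 1139 without KO 2). Among the 10 genes the count was 1, and 0 with a pseudocount of 0.1, the replicate block, limma-voom, without KO 3 and 4 or with both trends removed, 6 with a sex term, 8 with male libraries alone and 0 to 2 with 1 library left out (1 without WT 4, 0 without any other library but KO 2, and 2 without KO 2, where Fermt1 passed at a limma adjusted p of 0.0426). Over 12070 genes, same-numbered libraries had correlated deviations for number 3 (0.60) and not for numbers 1, 2 and 4 (0.05, -0.21 and -0.05), so the numbers were not taken to pair the libraries. Directions turned without KO 3 and 4 for Ilk (-0.25), Pxn (-0.34), Fermt2 (0.15), Tln1 (-0.0782) and the Tln2 share (0.935 points), and for Fermt2 with both trends removed (0.001). With 1 library left out the Pxn difference ran from -0.0563 to 0.41, below 0 without KO 3 or KO 4 (-0.0342). Ilk fell out under the filter on low values. The cause of these shifts was not tested. With 4 libraries a group and few reads for Ilk, small differences were not detectable.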

Other observations

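Genes downstream of the adhesion complex were measured too, and none passed the threshold with limma (0 genes), while 2 of the 17 kinases and scaffolds and 3 of the 10 Ilk-linked genes had an unadjusted p below 0.05, as did 19.2% of all genes. With limma-voom 0 genes of both lists passed. Of 17 kinases, scaffolds and Rac exchange factors, 10 were lower and 7 higher in KO (median log2 difference -0.10), and Pak2 and Crkl lay below WT in every KO library, as did 6.86% of all genes. Pak2, a kinase that acts below Rac, averaged 20.2 ± 4.41 FPKM in KO and 32.6 ± 2.23 FPKM in WT (SD, n = 4 each; limma adjusted p = 0.148). Crkl, an adaptor bound by paxillin and its partners, averaged 9.66 ± 3.29 FPKM in KO and 16.2 ± 0.898 FPKM in WT (limma adjusted p = 0.154). Ptk2, the focal adhesion kinase, was at 4.98 to 8.90 FPKM in KO and 7.14 to 10.2 FPKM in WT, and Dock1 and Crk also had overlapping groups. Of 10 genes linked to Ilk signalling, 5 were lower and 5 higher (median log2 difference -0.19). Akt1 was at 81.5 to 137 FPKM in KO and 59.2 to 91.0 FPKM in WT. Gsk3b, Rictor and Rock1 had their lowest values in KO 3 and KO 4.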
